A study of Mus musculus with 8 samples.

Results

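The constitutive proteasome subunit genes were taken by symbol, as those that begin with Psma, Psmb, Psmc, Psmd, Psme, Psmf or Psmg and a digit. Of 51 matches, the 3 immunoproteasome genes *Psmb8*, *Psmb9* and *Psmb10* were dropped, which left 48 of the 32227 genes in the count tables. Their UMIs (unique molecular identifiers, each counting 1 captured RNA molecule) were followed in cells from the brains of 8 male C57Bl/6J mice, which the labels give as 5 to 6 months old, with 1 library per mouse. Each mouse had received lipopolysaccharide (LPS, an endotoxin of the outer membrane of gram-negative bacteria) at 15000000 EU/kg or saline by intraperitoneal injection 24 hours earlier. The brains were not perfused, so cells of the blood vessels were included, and cells carrying CD45, a surface protein of leukocytes, were enriched on magnetic columns before PIPseq, a droplet method that barcodes the RNA of single cells. The tissue was dissociated with inhibitors of transcription and translation (actinomycin D, triptolide and anisomycin) or with their vehicle, DMSO. Each of the 4 combinations of injection and dissociation had 2 replicates, numbered by capture batch, so that LPS was compared with saline over 4 mice against 4.

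The proteasome is the large protease that degrades proteins tagged with ubiquitin. Its 20S core is a barrel of alpha rings, which guard the entrance, and beta rings, which hold the proteolytic sites. A 19S regulatory particle caps the barrel, where a base of ATPases unfolds the substrate and non-ATPase subunits bind and remove ubiquitin. The PA28 and PA200 activators can take the place of the cap, and dedicated chaperones assemble the particle. In cells exposed to interferon, *Psmb8*, *Psmb9* and *Psmb10* encode replacements for the constitutive catalytic subunits, and PA28 (*Psme1*, *Psme2*) is known for its part in making peptides for major histocompatibility complex class I. Among the 48 genes were 7 of the alpha ring, 7 of the beta ring, 6 base ATPases, 11 non-ATPase subunits, 5 activators and inhibitors, 7 assembly chaperones and 5 that the symbol pattern takes although they are not part of the standard particle.

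The 8 libraries held 90352359 to 141182123 UMIs in all barcodes. Between 12039 and 17364 barcodes per library passed the limits of at least 800 and under 45000 UMIs, at least 250 and under 6500 genes and under 5% mitochondrial counts, and 0 to 25 barcodes were shared between any pair of libraries. Cells were gated into 19 classes by marker genes that include no proteasome gene, and 105280 of 119053 were assigned. Cells that passed no gate were more frequent with LPS, 1722 to 2040 per library against 433 to 819 with saline. The 48 genes had 157822 to 221895 UMIs per saline library and 517167 to 923196 per LPS library. Gene levels are given as CPM, a gene's UMIs in a class and library scaled to 1000000 UMIs of that class and library. Microglia, macrophages, monocytes, neutrophils, dendritic cells, B-cells, T-cells and NKs were also checked with genes left out of their gates. Among these were *C1qa* in microglia at 8071 CPM, against a median of 812 in the others of these classes, and *Il1r2* in neutrophils at 2620 against 44.5. *Ffar2*, used for dendritic cells, was low at 5.43 CPM in that class. The remaining classes, among them the vessel and border classes, had no such check. For single genes the tests used sums over the cells of a class, so fewer cells with that RNA and less of it per cell were not told apart.

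In microglia, the resident macrophages of the brain tissue, the summed level of the 48 genes was 3851, 4134, 3995 and 4271 CPM in the saline libraries, listed here and below as DMSO replicates 1 and 2 and then inhibitor replicates 1 and 2. The LPS libraries had 8626, 9243, 9400 and 10016 CPM in the same order, so the groups did not overlap. The means were 4063 ± 180.3 and 9321 ± 571.3 CPM (SD, n = 4 each), a ratio of 2.29, and a microglial cell held on average 9.91 to 13.2 UMIs of these genes with saline and 46.8 to 59.7 with LPS. The median microglial cell of a library held 9 to 12 of them with saline and 42 to 53 with LPS, so the middle of the distribution moved as well as the mean. These UMIs per cell are not scaled to depth. The median cell held 2227 to 3215 UMIs of all genes with saline and 4706 to 5488 with LPS. Of the 47 genes that passed the filter on low counts, 46 rose and 1 fell (edgeR quasi-likelihood test, Benjamini-Hochberg adjusted p under 0.05), where 29.2% of all tested genes rose and 33.6% fell. Their median log2 fold change was 1.83, against −0.20 over all genes. *Psmb11*, a thymus-specific beta subunit, was not tested and had at most 0.364 CPM in any library. The CPM of 41 members did not overlap between groups and were higher with LPS, as for 17% of genes with at least 1 CPM, and those of 1 member were lower, as for 60.5%.

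The size of these changes depended on how libraries were scaled. TMM, which sets the libraries to a common level over most genes, gave factors of 1.19 to 1.41 to the saline microglia and 0.692 to 0.830 to the LPS microglia. With library totals alone the median change of all genes moved from −0.20 to −0.96, that of the members from 1.83 to 1.08, and 43 members rose and 2 fell, against 13.7% and 67.3% of all genes. A change of scaling moves all genes by about the same amount. The distance of the members from all genes could therefore hardly change, and it is no check on the scaling. Other measures moved with LPS as well, and their part in the result was not tested beyond the following values. The median microglial cell held 2227 to 3215 UMIs with saline and 4706 to 5488 with LPS, and among cells of at least 2000 and under 4000 UMIs alone the ratio of the summed levels was 2.25. The 12 markers of the microglia gate fell from 41129 to 42681 CPM in saline libraries to 7588 to 9007 CPM in LPS libraries. The 12 neutrophil markers in microglia were at 26.2 to 234 CPM with saline and 387 to 538 CPM with LPS, and the 10 monocyte markers at 44.7 to 61.2 and 58.9 to 81.9 CPM. The lists of all other cell types were lower with LPS, mostly without overlap. Choroid plexus markers, the highest of these, were at 2325 to 10646 and 451 to 873 CPM, and B-cell markers at 474 to 581 and 106 to 122 CPM. The free RNA of the suspension, read from barcodes with 1 to 99 UMIs, held the members at 3911 to 4363 CPM with saline and 7858 to 8592 CPM with LPS, and with free RNA subtracted the ratio in microglia was 2.30. The share subtracted was read from haemoglobin RNA, at 3.9 to 4.6% with saline and 2.1 to 2.5% with LPS. Free RNA held the members near the level of the cells, so the subtraction could hardly move the ratio.

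**Figure D1:**
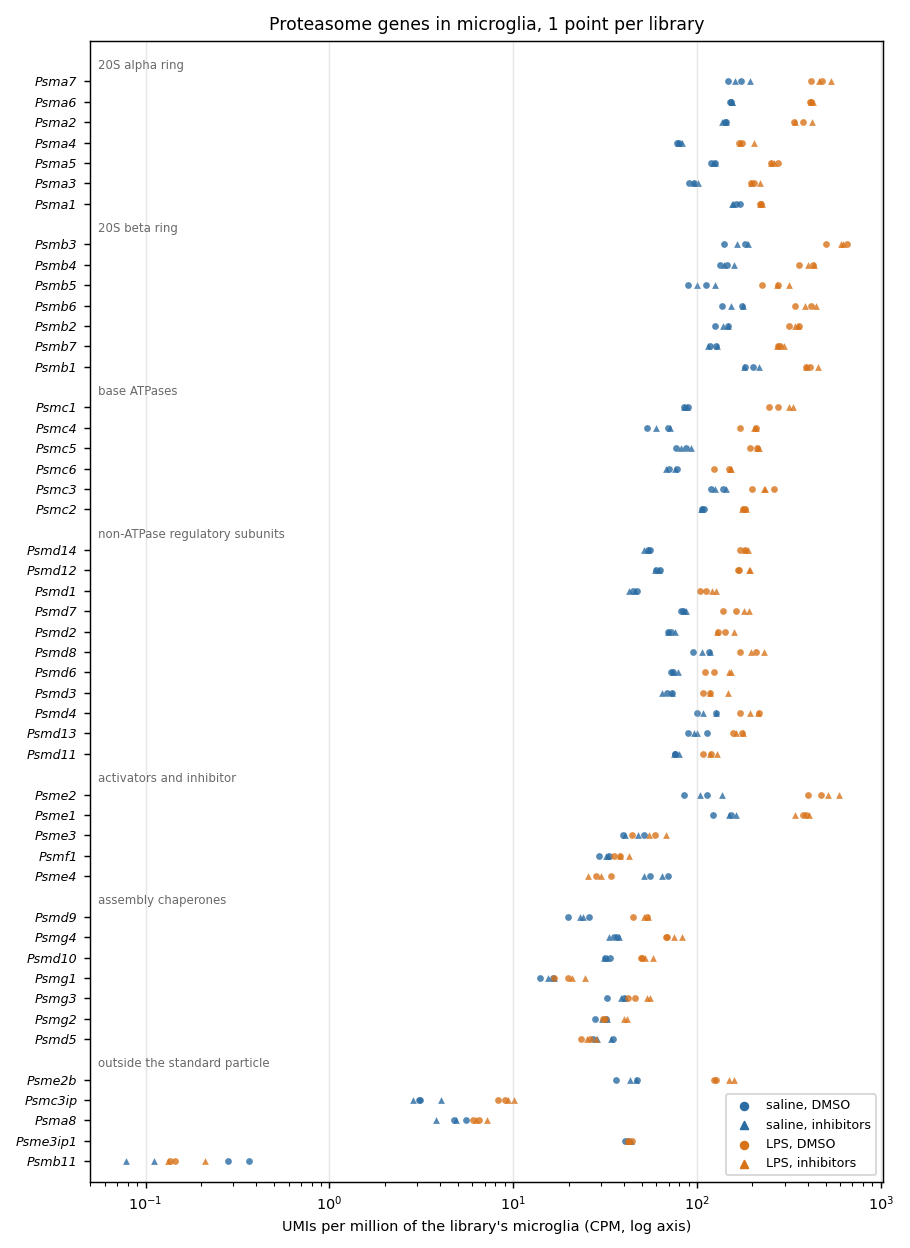
Level of each of the 48 genes in microglia, in CPM on a log axis, with 1 point per library (circles DMSO, triangles inhibitors, blue saline, orange LPS) and the genes grouped by role. The orange points lie to the right of the blue ones for most genes, as for *Psme2* at 402 to 591 against 85.0 to 137 CPM, and to the left for *Psme4*.

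The regulatory sequence of 4 members is shown because they mark the ends of the response in microglia. *Psme2* had the largest rise of all members, *Psmb3* the largest of the core and *Psmd9* the largest of the chaperones. *Psme4* alone fell with TMM scaling (−0.28, against a median of −0.20 over all genes). The 250 bases before the RefSeq start site are given 5′ to 3′ on the gene's strand in build GRCm38.p6, with capitals where a searched motif matches on either strand. They lie at chr14:55591022-55591271 on the minus strand for *Psme2* (1 of its 2 start sites), and on the plus strand at chr11:97703184-97703433 for *Psmb3*, chr5:123227940-123228189 for *Psmd9* and chr11:30771525-30771774 for *Psme4*.
Psme2: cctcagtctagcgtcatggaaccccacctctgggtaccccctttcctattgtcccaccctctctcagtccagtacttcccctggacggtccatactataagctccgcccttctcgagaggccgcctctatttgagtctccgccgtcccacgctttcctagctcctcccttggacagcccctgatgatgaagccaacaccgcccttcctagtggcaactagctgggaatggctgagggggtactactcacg
Psmb3: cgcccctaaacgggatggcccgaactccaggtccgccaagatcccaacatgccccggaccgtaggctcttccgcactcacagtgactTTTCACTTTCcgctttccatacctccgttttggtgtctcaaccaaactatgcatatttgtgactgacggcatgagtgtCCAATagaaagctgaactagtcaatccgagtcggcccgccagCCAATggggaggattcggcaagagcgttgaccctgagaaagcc
Psmd9: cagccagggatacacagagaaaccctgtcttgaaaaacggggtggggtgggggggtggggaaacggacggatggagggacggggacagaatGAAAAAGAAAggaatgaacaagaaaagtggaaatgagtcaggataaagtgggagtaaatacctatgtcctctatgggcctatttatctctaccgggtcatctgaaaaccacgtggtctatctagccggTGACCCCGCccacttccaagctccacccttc
Psme4: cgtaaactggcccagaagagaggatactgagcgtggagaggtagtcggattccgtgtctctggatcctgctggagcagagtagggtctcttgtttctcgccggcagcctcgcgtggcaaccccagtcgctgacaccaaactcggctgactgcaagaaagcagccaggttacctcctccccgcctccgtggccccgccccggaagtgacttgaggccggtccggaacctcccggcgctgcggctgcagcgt
The motifs looked for on both strands were TGACNNNGC (antioxidant response type), CCAAT (bound by NF-Y) and GAAA followed after 2 bases by a second GAAA (interferon response type), which do not overlap one another in the sequences shown. *Psmb3* held CCAAT at 85 and 43 bases before the start and the interferon response type, on the minus strand, at 163 bases before it. *Psmd9* held the antioxidant response type at 31 and the interferon response type at 159 bases before the start, and neither *Psme2* nor *Psme4* held any of the motifs in this window. Promoters were found for 40 of the 48 genes. TGACNNNGC was in 12.5% of these (*Psmb5*, *Psmb6*, *Psmc6*, *Psmd9*, *Psmd12*) and in 11.5% of all genes with a promoter, CCAAT in 37.5% and 37.5%, and the interferon response type in 7.5% (*Psmb3*, *Psmd4*, *Psmd9*) and 3.46%. The members' shares were thus close to those of all genes for the first 2 motifs.

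All 7 genes of the alpha ring rose in microglia, with a median log2 fold change of 1.93 (1.17 with library totals). *Psma7* was at 148, 174, 160 and 194 CPM in the saline libraries and at 419, 475, 458 and 538 CPM in the LPS libraries, which gave a log2 fold change ± SE of 2.23 ± 0.17 at an adjusted p of 2.2e-07. *Psma6* went from 150 to 156 CPM with saline to 411 to 427 CPM with LPS (2.20 ± 0.13, adjusted p = 2.3e-08). In both, every LPS library was above every saline library. *Psma2* (2.14), *Psma4* (1.93), *Psma5* (1.84) and *Psma3* (1.84) followed, and *Psma1* had the smallest change of the ring at 1.22 (0.47 with library totals).

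The 7 constitutive beta subunits all rose as well, with a median of 2.05 (1.31 with library totals). *Psmb3*, a subunit without catalytic activity, was at 141, 182, 165 and 190 CPM with saline and at 504, 651, 608 and 621 CPM with LPS (2.56 ± 0.18, adjusted p = 9.0e-08). *Psmb5*, *Psmb6* and *Psmb7* encode the 3 catalytic subunits whose places the immunoproteasome subunits can take. *Psmb5* was at 89.8 to 125 CPM with saline and 225 to 314 CPM with LPS (2.09 ± 0.18), *Psmb6* at 137 to 178 and 340 to 444 CPM (2.05 ± 0.18), and *Psmb7* at 114 to 128 and 271 to 298 CPM (1.96 ± 0.14). Saline and LPS libraries were separate for each of the 3, and *Psmb4* (2.23), *Psmb2* (2.04) and *Psmb1* (1.83) rose as well.

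Of the regulatory particle, all 6 base ATPases and all 11 non-ATPase subunits rose, with medians of 1.90 and 1.63 (1.14 and 0.88 with library totals). Among the ATPases *Psmc1* was at 84.9, 89.3, 85.3 and 88.5 CPM with saline and at 245, 277, 331 and 315 CPM with LPS (2.49 ± 0.14, adjusted p = 1.5e-08). *Psmc4* (2.40) and *Psmc5* (2.05) came next, *Psmc6* (1.74), *Psmc3* (1.56) and *Psmc2* (1.5) after them. The largest change of the non-ATPase subunits was that of *Psmd14*, the deubiquitinase of the particle. It was at 55.5, 54.4, 51.5 and 53.8 CPM with saline and at 183, 172, 182 and 190 CPM with LPS (2.51 ± 0.13, adjusted p = 5.9e-09), so the 4 libraries of a group lay close together and far from the other group. *Psmd12* (2.31), *Psmd1* (2.11), *Psmd7* (1.74), *Psmd2* (1.71) and *Psmd8* (1.63) followed, and the smallest change of the 11 was that of *Psmd11* at 1.38.

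The activators went different ways. *Psme2*, the beta subunit of PA28, was at 85.0, 113, 104 and 137 CPM with saline and at 472, 402, 516 and 591 CPM with LPS (2.91 ± 0.20, adjusted p = 6.6e-08). *Psme1*, its alpha subunit, was at 123 to 162 CPM and 339 to 404 CPM (2.12 ± 0.17), and *Psme3*, which forms a nuclear PA28 of its own, at 39.8 to 51.2 and 44.1 to 67.8 CPM (1.08 ± 0.12), with groups that overlapped. *Psmf1*, an inhibitor of the core, rose by 1.03 ± 0.13. *Psme4*, which encodes the PA200 activator, was at 69.5, 55.5, 64.7 and 51.8 CPM with saline and at 34.2, 28.1, 30.1 and 25.6 CPM with LPS. All LPS libraries were thus below all saline libraries, but after TMM scaling the log2 fold change was only −0.28 ± 0.10 (adjusted p = 0.023), against −1.04 with library totals. The medians over all genes were −0.20 and −0.96, and 60.5% of genes with at least 1 CPM were likewise lower without overlap. *Psme4* thus changed about as the median gene did. The change was negative in all 23 alternatives tried, and the adjusted p was above the threshold in 12 of them, from 0.0531 without LPS inhibitor replicate 2 to 0.363 with DESeq2. Leaving out saline DMSO replicate 1 or 2, saline inhibitor replicate 1 or 2, LPS inhibitor replicate 1 or LPS DMSO replicate 2 likewise gave 0.120, 0.128, 0.161, 0.201, 0.0671 and 0.0625.

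The 7 assembly chaperones all rose with TMM scaling, by a median of 1.15 (0.38 with library totals). *Psmd9*, a chaperone of the base, was at 19.9, 25.8, 23.0 and 24.1 CPM with saline and at 44.7, 53.4, 51.7 and 54.1 CPM with LPS (1.88 ± 0.14, adjusted p = 2.0e-07). *Psmg4*, a chaperone of the core, went from 33.0 to 37.7 CPM to 67.5 to 83.0 CPM (1.79 ± 0.14), and *Psmd10* (1.45), *Psmg1* (1.15), *Psmg3* (1.12) and *Psmg2* (0.98) changed less. *Psmd5*, another base chaperone, was at 27.2 to 35.0 CPM with saline and 23.3 to 28.1 CPM with LPS. It rose by 0.48 ± 0.09 with TMM (adjusted p = 0.00062) and fell by 0.28 on the log2 scale with library totals (adjusted p = 0.044), while the change of *Psmg2* with library totals was 0.22 and did not pass (adjusted p = 0.081).

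Of the genes outside the standard particle, *Psme2b*, a copy of *Psme2* with which it may share reads, so that both levels are uncertain, rose by 2.43 ± 0.15. *Psmc3ip*, which despite its symbol encodes a cofactor of meiotic recombination, was at 2.85 to 4.04 CPM with saline and 8.27 to 10.04 CPM with LPS (2.25 ± 0.17). *Psma8*, an alpha subunit of the testis, was low at 3.81 to 5.57 and 6.05 to 7.18 CPM and rose by 1.22. *Psme3ip1*, a partner of PA28 gamma, rose by 0.77 with TMM and had a change of 0.02 with library totals (adjusted p = 0.86).

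**Figure D2:**
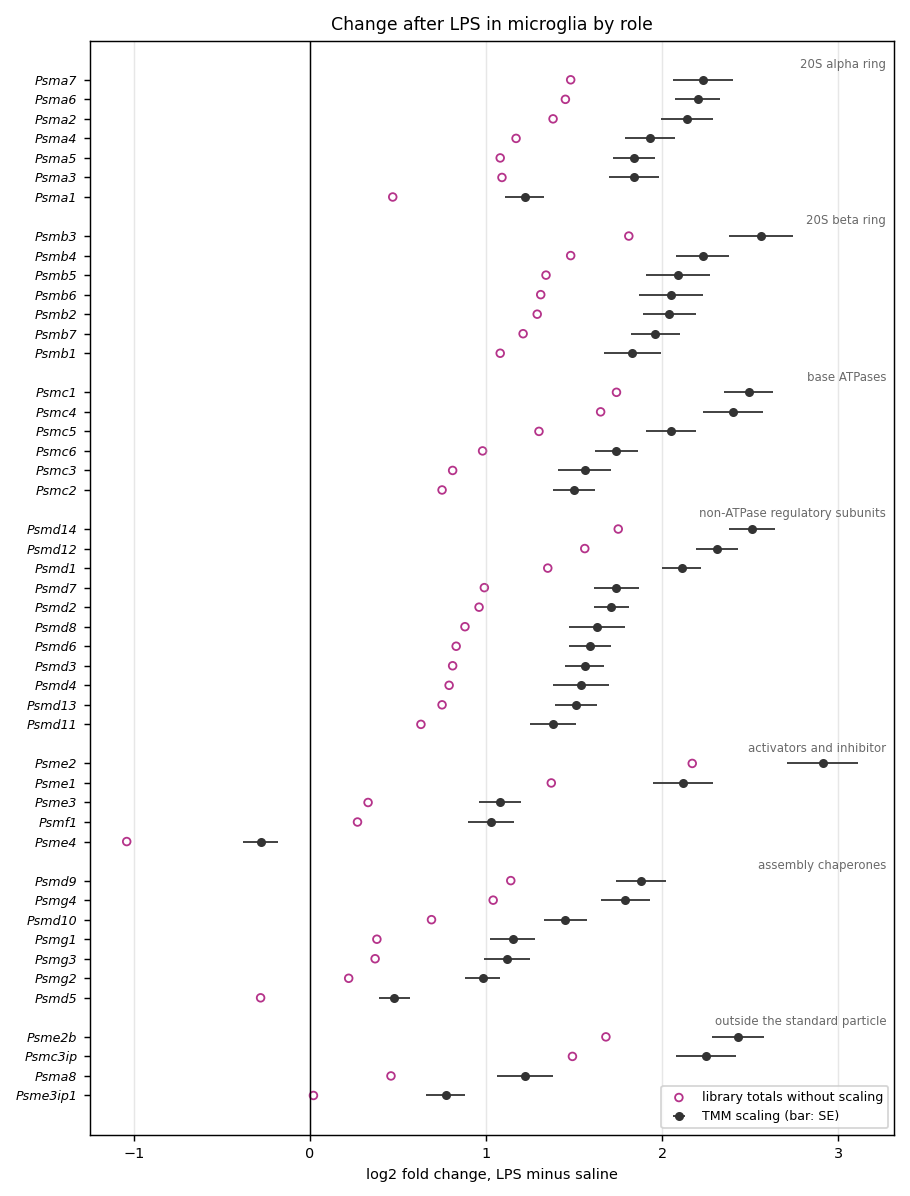
Log2 fold change of the 47 tested genes in microglia, LPS minus saline, by role, with filled points and SE bars for TMM scaling and open points for library totals without scaling. All open points lie to the left of the filled ones, *Psmd5* passes from 0.48 to −0.28, and only *Psme4* is below 0 under both.

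The same question was asked in the other classes with at least 10 cells in enough libraries. The mean summed level of the 48 genes was higher with LPS in each of these 11, with no overlap of the 4 saline and 4 LPS libraries in any but dendritic cells. In macrophages, gated by markers such as *Mrc1* and *Cd163*, it was 3337 to 3540 CPM with saline and 5550 to 6690 CPM with LPS, a ratio of means of 1.74. In monocytes it was 4656 to 6197 and 9434 to 10696 CPM, a ratio of 1.96. Neutrophils had 2442 to 4272 and 4794 to 5102 CPM (1.55), B-cells 4507 to 6293 and 6963 to 7968 CPM (1.43), T-cells 4394 to 5192 and 6470 to 6894 CPM (1.40) and NKs 5706 to 7399 and 8786 to 10131 CPM (1.47). Dendritic cells overlapped, with 7912 CPM in saline DMSO replicate 2, 3996 to 4593 CPM in the other saline libraries and 7140 to 7527 CPM with LPS, and without that library the ratio was 1.71 instead of 1.42. Outside the immune cells the ratios were 1.54 in endothelial cells, 1.53 in pericytes and smooth muscle, 1.77 in choroid plexus cells and 1.51 in leptomeningeal cells. With TMM-scaled CPM the ratio was 1.26 in choroid plexus cells, where the median change of all genes was 0.01 with TMM and 0.44 with library totals, and 3.86 in microglia, and the neutrophil groups then overlapped. The total behind a TMM-scaled CPM is the UMIs of the genes that passed the filter, multiplied by the TMM factor. The median UMIs per cell overlapped between the groups in these classes except in neutrophils (1382 to 1787 with saline, 1124 to 1254 with LPS) and dendritic cells (2464 to 4107 and 1445 to 2363), where they were lower with LPS. In cells of at least 2000 and under 4000 UMIs the ratio was 1.75 in macrophages, 2.29 in monocytes, 1.79 in neutrophils, 1.38 in endothelial cells and 1.22 in T-cells, whose groups then overlapped.

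**Figure D3:**
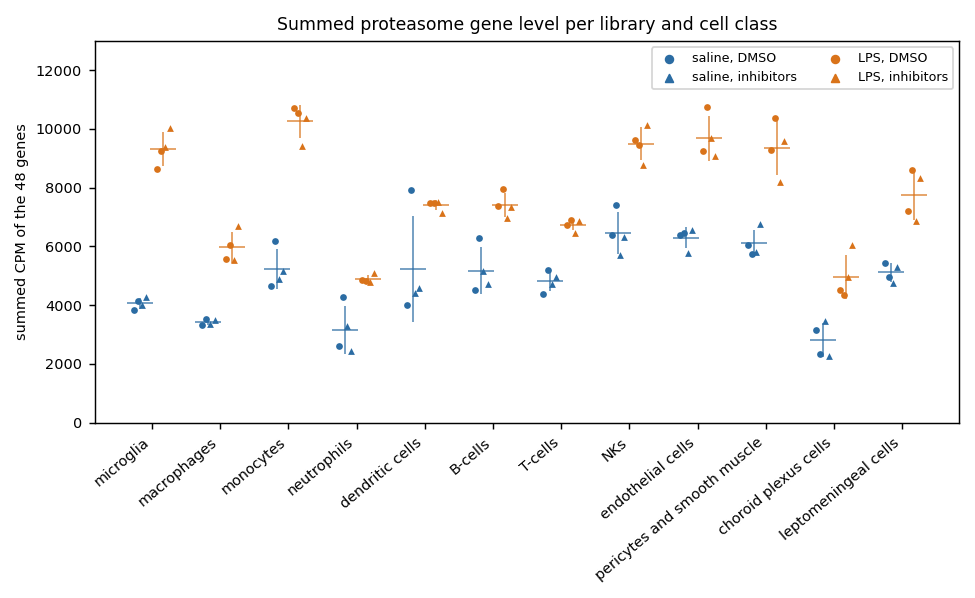
Summed level of the 48 genes in each of the 12 classes, in CPM of the class, with 1 point per library with horizontal lines at the mean and vertical lines of 1 SD for the 4 saline (blue) and 4 LPS (orange) libraries. Microglia go from a mean of 4063 to 9321, and dendritic cells are the class in which a saline library, at 7912, lies above the LPS libraries.

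In macrophages 39 of 45 tested members rose and none fell (24% of all genes rose), with a median log2 fold change of 1.03 against −0.04 over all genes. *Psmc1* was at 81.5, 48.2, 87.9 and 61.7 CPM with saline and at 195, 182, 219 and 274 CPM with LPS (1.97 ± 0.17, adjusted p = 8.3e-08). *Psmb3* (1.91) and *Psma6* (1.77) followed. The 6 members that did not pass were *Psme4* and *Psme3ip1* and the chaperones *Psmd5*, *Psmg2*, *Psmg3* and *Psmg4*. With library totals 34 rose (14.5% of all genes) and *Psme4* fell, by 0.70 on the log2 scale. The microglia markers in this class fell from 5483 to 6434 CPM with saline to 684 to 971 CPM with LPS, and the neutrophil markers were at 94.4 to 297 and 513 to 642 CPM. The choroid plexus markers were at 2298 to 10172 and 741 to 1583 CPM. The part of these 3 lists in the result was not tested.

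In monocytes 39 of 46 rose and none fell (15.9% of all genes rose), with a median of 1.00, and 33 rose with library totals (12.3% of all genes). *Psma6* was at 224, 220, 169 and 185 CPM with saline and at 653, 616, 553 and 691 CPM with LPS (1.78 ± 0.18, adjusted p = 7.0e-06). *Psmc1* rose by 1.86 ± 0.19 and *Psmd3*, a scaffold of the regulatory particle, by 1.56 ± 0.21. *Psma7*, among the most changed of the alpha ring in microglia, did not pass here. Monocytes numbered 116 to 255 cells per saline library and 817 to 1140 per LPS library, and the microglia markers in them were at 1731 to 3064 and 453 to 643 CPM. The choroid plexus markers were at 2490 to 11724 and 712 to 1478 CPM. The part of these shifts in the result was not tested. In DMSO libraries alone 22 members rose (5.4% of all genes).

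Endothelial cells had 36 members that rose and 1 that fell of 45 tested (20.8% and 21.5% of all genes), with a median of 0.81, and 27 (15.2%) and 1 with library totals. *Psmd3* was at 93.4, 94.8, 80.1 and 76.5 CPM with saline and at 266, 222, 236 and 224 CPM with LPS (1.67 ± 0.16, adjusted p = 7.6e-08). *Psmc4* (1.33) and *Psmd14* (1.30) followed. The member that fell was the chaperone *Psmd5*, at 42.6 to 77.0 CPM with saline and 14.4 to 38.1 CPM with LPS (−0.85 ± 0.26, adjusted p = 0.011). *Psme4* rose here by 0.63 ± 0.23 (adjusted p = 0.033), a call that was lost with library totals (0.41, adjusted p = 0.18). The microglia markers in endothelial cells were at 3284 to 4050 CPM with saline and 1289 to 2242 CPM with LPS, and the monocyte markers at 1600 to 1839 and 944 to 1148 CPM, and their part in the result was not tested.

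In the rarer immune classes fewer members passed, and their number moved with single libraries and with other settings. Where no share of all genes stands beside a count, the count shows only how far that number moved. In neutrophils 5 of 36 rose (10.6% of all genes): *Psme2* at 60.8 to 144 CPM with saline and 434 to 564 CPM with LPS (2.32 ± 0.33, adjusted p = 0.00031), *Psmd9* (1.71), *Psmb4* (1.41), *Psme2b* and *Psmd3*. With the capture batch as a block 9 rose and 1, *Psmg1*, fell (12.7% and 11.5% of all genes). That fit tested 5164 genes, *Psmg1* among them, against 4384 without the block, and without both the block and the low-count filter 9 members also rose and *Psmg1* fell. The neutrophil count was 3 without saline inhibitor replicate 1, 13 without saline DMSO replicate 2 and 2 without LPS inhibitor replicate 2, and 0 in edgeR with DMSO libraries alone, where 2 of 37 had an unadjusted p under 0.05. In dendritic cells 7 of 31 rose (17.2% of all genes), led by *Psmb7* (1.64), *Psmc4* (1.59) and *Psma3* (1.40), with 4 without saline inhibitor replicate 1 or 2 or LPS DMSO replicate 2 and, with DMSO libraries alone, 0 in edgeR and 3 of 26 at an unadjusted p under 0.05. The dendritic cell gate held 11 to 24 cells per saline library and 39 to 90 per LPS library. The authors reported the opposite direction, a decrease of dendritic cells with LPS. The cells in this gate may thus differ in kind between the groups. The part of such a shift in any dendritic cell result given here was not tested. In B-cells 10 of 41 rose (6.78% of all genes), led by *Psme2* at 126 to 214 and 347 to 613 CPM (1.37 ± 0.26), *Psme1* (1.32) and *Psmd14* (1.21). The 10 monocyte markers in B-cells were at 724 to 837 CPM with saline and 1310 to 2344 CPM with LPS, and their part in the result was not tested. The B-cell count was 5 with library totals (4.77% of all genes), 5 without LPS DMSO replicate 1 and 3 without LPS inhibitor replicate 2. In T-cells 12 of 40 rose (8.93% of all genes), among them *Psme2* at 212 to 367 and 436 to 646 CPM (1.00 ± 0.21), *Psmd3* (0.97, a call lost with library totals at adjusted p = 0.12) and *Psma5* (0.90), with 7 under library totals (6.71% of all genes) and 5 without LPS DMSO replicate 1, saline inhibitor replicate 1 or LPS inhibitor replicate 2. The T-cell count was 32 with barcodes of mixed markers kept, 3 with DMSO libraries alone and 1 with inhibitor libraries alone. In NKs 8 of 34 rose (8.4% of all genes), led by *Psma3* at 93.6 to 170 and 244 to 452 CPM (1.24 ± 0.26), *Psma6* (0.95) and *Psmb4* (0.92), with 5 without saline inhibitor replicate 1 or 2 and 4 without LPS inhibitor replicate 2. The NK count was 19 with mixed barcodes kept, 16 with the stricter gate of 4 marker genes, 1 with DMSO libraries alone and 3 with inhibitor libraries alone. The 12 microglia markers were lower with LPS in all 5 of these classes, at 1756 to 2769 and 421 to 904 CPM in T-cells, 1238 to 2033 and 373 to 607 CPM in NKs, 2409 to 4617 and 861 to 1375 CPM in neutrophils, 1712 to 4510 and 625 to 1038 CPM in dendritic cells, and 1598 to 2445 and 265 to 804 CPM in B-cells. The monocyte markers in T-cells were at 1153 to 1853 CPM with saline and 596 to 879 CPM with LPS. They were at 1327 to 2391 and 573 to 1008 CPM in dendritic cells and at 990 to 2493 and 437 to 989 CPM in NKs. The part of these levels in the results was not tested. None of the tested members fell in these 5 classes in the fit with the filter and without the block.

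The remaining vessel and border classes had few cells, 10 to 130 per library. In leptomeningeal cells 11 of 33 members rose (14.1% of all genes), led by *Psmd14* at 15.5 to 58.0 and 123 to 140 CPM (1.95 ± 0.39, adjusted p = 0.0025), *Psme1* (1.76) and *Psmd7* (1.48). The count was 7 with library totals (10.1% of all genes), 7 without saline DMSO replicate 1 and 6 without saline inhibitor replicate 2 or LPS inhibitor replicate 2, and 0 in edgeR with a stricter gate of 4 marker genes, where 7 of 32 had an unadjusted p under 0.05. In pericytes and smooth muscle 10 of 28 rose (12.4% of all genes), led by *Psme2* (1.63), *Psme1* at 72.2 to 128 and 252 to 322 CPM (1.60 ± 0.29) and *Psmd12* (1.01, lost with library totals at adjusted p = 0.064). Without saline DMSO replicate 1 or 2, LPS DMSO replicate 1, saline inhibitor replicate 1 or 2 or LPS inhibitor replicate 2 that count was 3, 5, 5, 2, 6 and 4. In choroid plexus cells 4 of 32 rose (9.78% of all genes), *Psme2* at 23.4 to 60.7 and 141 to 299 CPM (1.86 ± 0.35, adjusted p = 0.00011), *Psme1* (1.22), *Psmb3* (0.90) and *Psmb4*, with 2 of them without saline DMSO replicate 1, and *Psmb3* did not pass with the capture batch as a block (0.79, adjusted p = 0.052). In cells of at least 2000 and under 4000 UMIs 1 member could be tested here and 0 passed in edgeR, with 1 at an unadjusted p under 0.05. The monocyte markers in choroid plexus cells were at 188 to 510 CPM with saline and 616 to 1403 CPM with LPS. The microglia markers were at 3568 to 4090 and 1521 to 1730 CPM in leptomeningeal cells, 2612 to 3555 and 1810 to 2342 CPM in pericytes and smooth muscle and 880 to 1576 and 511 to 991 CPM in choroid plexus cells. The part of these markers in the results was not tested. The PA28 genes thus passed in all 3 classes, save *Psme2* in leptomeningeal cells.

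Across the 12 classes no member rose in every one. *Psmb4* rose in 11, all but dendritic cells, where its log2 fold change was 0.81 (adjusted p = 0.061). *Psme1* rose in 10, all but neutrophils (0.87, adjusted p = 0.073) and dendritic cells (−0.38, adjusted p = 0.40), and *Psme2* in 9. *Psme4* could be tested in 4 classes, in which it fell in microglia, rose in endothelial cells and had changes of −0.34 and 0.41 in macrophages and monocytes (adjusted p = 0.087 and 0.092).

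**Figure D4:**
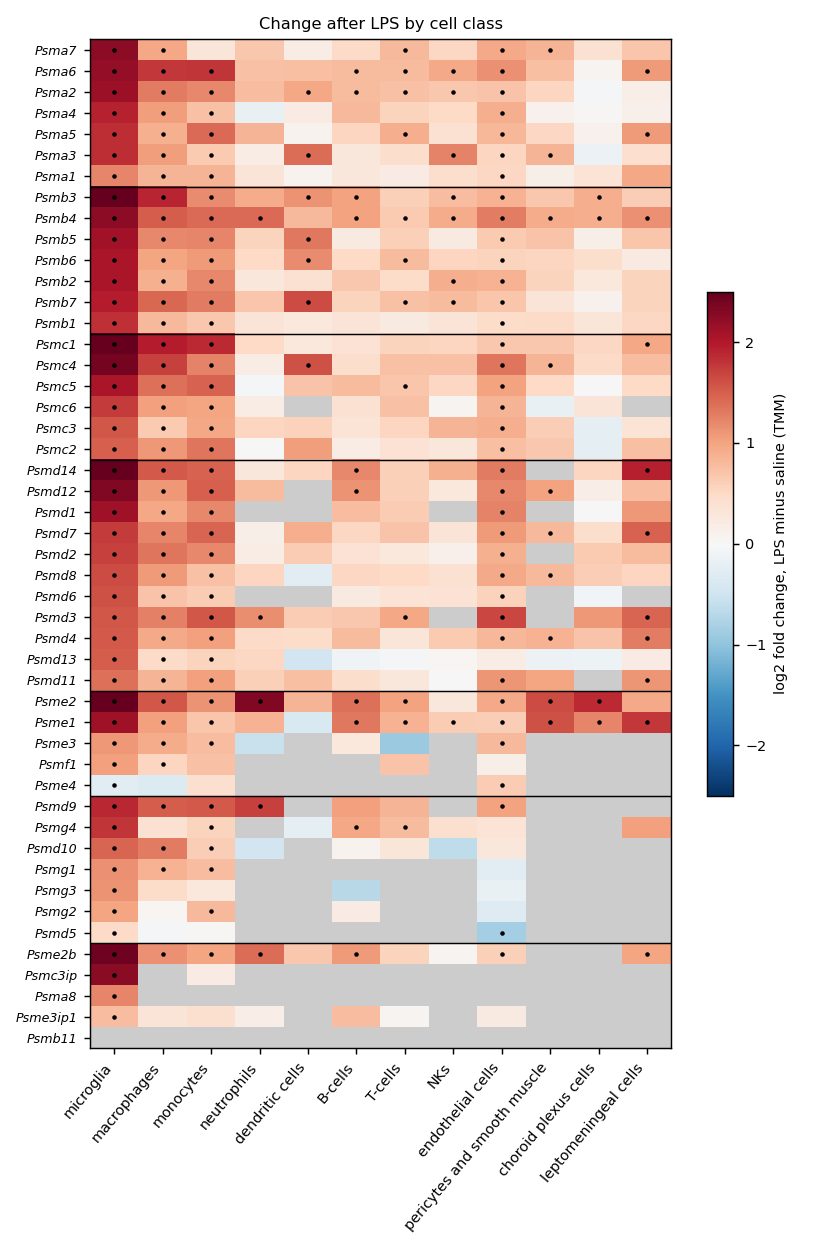
Log2 fold change of each member, LPS minus saline, in each of the 12 classes with TMM scaling, with colour for the size and direction and a dot for the members that passed the test; grey cells were not tested. The microglia column has the largest changes for most rows, and *Psme4* and *Psmd5* are the rows with a called fall.

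Whether the response differed from that of microglia was tested directly in the 7 other immune classes, as the interaction of class and LPS with the library as a block. Of 47 to 48 members tested per class, the LPS change was lower than in microglia for 38 in macrophages, 17 in monocytes, 23 in neutrophils, 6 in dendritic cells, 35 in B-cells, 37 in T-cells and 30 in NKs. Over all genes the shares with a lower change were 19.7%, 10.5%, 7.93%, 3.28%, 9.18%, 9.71% and 6.79%. With library totals these counts were 20, 11, 7, 6, 13, 20 and 11, each a subset of the first, and the shares of all genes 9.49%, 6.63%, 4.75%, 3.34%, 4.26%, 4.9% and 3.01%. Leaving out single libraries moved 4 of them by more than 1.5 times, to 24 and 25 in macrophages (saline DMSO and saline inhibitor replicate 1), to 7 and 11 in neutrophils (saline DMSO replicate 2 and LPS inhibitor replicate 2), to 3 in dendritic cells (saline inhibitor replicate 2 or LPS inhibitor replicate 2) and to 14 in NKs (saline DMSO replicate 1). In the LPS test within the class, 45 members passed the filter in macrophages, 46 in monocytes, 36 in neutrophils and 31 in dendritic cells. In B-cells, T-cells and NKs 41, 40 and 34 passed it. The other members passed it here only together with microglia. The counts can include some of these, whose differences are uncertain.

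*Psme2* was among the 4 largest differences that passed the test in 4 of the classes. Its change was lower than in microglia by 1.37 ± 0.13 on the log2 scale in macrophages, by 1.46 ± 0.22 in monocytes, by 1.27 ± 0.29 in dendritic cells and by 2.49 ± 0.24 in NKs. *Psme1* differed by −1.72 ± 0.31 in dendritic cells (adjusted p = 1.7e-06) and by −1.12 ± 0.19 in monocytes. In B-cells the largest called differences were those of *Psmc3ip* at −2.56 ± 0.71 and *Psmc1* at −2.06 ± 0.29 (adjusted p = 6.4e-11), and in T-cells those of *Psme3* at −1.85 ± 0.41 and *Psmb3* at −1.81 ± 0.18 (adjusted p = 3.5e-22). The median difference over all genes was itself −0.74 in B-cells and −0.40 in T-cells, against −1.26 and −1.23 for the members. With library totals these medians were −0.18 and 0.12 over all genes and −0.69 and −0.71 for the members. In neutrophils the assembly chaperones *Psmg1* and *Psmg2* differed by −4.05 ± 0.75 and −2.13 ± 0.61, and *Psmd14* and *Psmc4* by −1.91 ± 0.41 and −1.91 ± 0.39. Of the differences named here, *Psmc3ip* in B-cells (adjusted p = 0.080) and *Psmg2* in neutrophils (adjusted p = 0.058) did not pass with library totals. *Psmg1* and *Psmg2* in neutrophils and *Psmc3ip* in B-cells had too few counts for the LPS test within their class. They passed the filter only together with microglia, so the sizes of these differences are uncertain. All 7 chaperones together were at 96.3 to 243 CPM in neutrophils with saline and 128 to 190 CPM with LPS. With TMM the only member with a higher change than in microglia was *Psme4* in monocytes, by 1.00 (adjusted p = 0.00021), where 12.2% of all genes had a higher change. With library totals *Psme4* (1.32) and *Psmd3* (0.66, adjusted p = 0.011) were higher there, as were 21.4% of all genes.

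The classes also differed without LPS. Against microglia of the same 4 saline libraries, B-cells had 23 members that were higher and 2 that were lower of 47 tested (15.3% and 24.8% of all genes), T-cells 18 and 4 (13.8% and 22.8%), NKs 17 and 2 (9.26% and 17.1%) and endothelial cells 23 and 5 (19.2% and 27.4%). With library totals the pairs were 14 and 3 (14% and 27.9% of all genes), 10 and 7 (11.8% and 28.6%), 17 and 2 (9.1% and 17.4%), and 35 and 1 (25.3% and 19.2%). Without saline DMSO replicate 2 the pairs were 12 and 2 in B-cells and 10 and 1 in NKs. *Psmb1* was at 399, 507, 423 and 404 CPM in B-cells and at 182, 201, 180 and 217 CPM in the microglia of the same libraries (1.26 ± 0.13). *Psmb3* was at 446 to 649 CPM in NKs and 141 to 190 CPM in microglia (1.60 ± 0.17), and *Psma7* at 286 to 461 CPM in endothelial cells and 148 to 194 CPM in microglia (0.83 ± 0.10). *Psme2* was higher by 1.57 ± 0.12 in T-cells, 1.64 ± 0.19 in NKs and 1.67 ± 0.26 in dendritic cells, and for these 3 classes its saline levels did not overlap with those of microglia.

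The myeloid classes were lower or mixed. Macrophages had 1 member that was higher, *Psmg4* (0.82 ± 0.10), and 24 that were lower (15.5% and 20% of all genes), led by *Psmd6* (−0.72) and *Psmd11* (−0.69), and 2 and 24 with library totals (16.1% and 19.3%). Neutrophils had 0 and 19 (10.8% and 20.5%), with *Psmd3* at 13.8 to 32.4 CPM against 64.7 to 73.3 CPM in microglia (−1.74 ± 0.40), and 1 and 9 with library totals (12.6% and 14.9%). The neutrophil count was 11 without saline DMSO replicate 1 and 12 without either saline inhibitor replicate. Monocytes had 12 and 6 (15.5% and 23.6%), or 18 and 3 with library totals (19.8% and 17.9%), and dendritic cells 4 and 4 (5.46% and 10.2%), or 4 and 0 with library totals (6.93% and 6.37%) and 4 and 0 without saline DMSO replicate 1 or saline inhibitor replicate 2 and 4 and 1 without saline inhibitor replicate 1. *Psmg4* was higher than in microglia in monocytes (1.14), dendritic cells (1.58) and B-cells (1.46 ± 0.17) too. *Psme4* was lower than in microglia by 1.54 ± 0.25 on the log2 scale in T-cells, with 13.8 to 26.9 CPM against 51.8 to 69.5 CPM, and by 0.95 in monocytes, 0.93 in B-cells and 1.5 in NKs. In T-cells, B-cells and NKs *Psme4* had too few counts for the LPS test within the class. It passed the filter there only together with microglia, so the sizes of these differences are uncertain.

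In the small vessel and border classes few of the 47 tested members differed with TMM, at shares no higher than those of all genes. With library totals more differed in pericytes and smooth muscle and in choroid plexus cells, and in leptomeningeal cells the split turned. Pericytes and smooth muscle had 4 higher and 3 lower (11.2% and 18.5% of all genes), or 19 and 1 with library totals (15% and 12.4%), and 0 and 3, 0 and 1, and 0 and 2 without saline DMSO replicate 1 and without saline inhibitor replicates 1 and 2. Choroid plexus cells had 1 and 4 (10.6% and 24.2%), or 1 and 10 with library totals (10% and 32.2%). Their counts were 1 and 0, 0 and 0, 0 and 1, and 1 and 2 without saline DMSO replicates 1 and 2 and saline inhibitor replicates 1 and 2. Leptomeningeal cells had 0 and 8 (9.8% and 17.1%), or 6 and 3 with library totals (14.7% and 8.19%), and 4 or 5 lower without any 1 library (5 without saline DMSO replicate 1 or either inhibitor replicate, 4 without saline DMSO replicate 2). *Psme4* was lower than in microglia in all 3, by 1.51, 1.45 and 2.69 on the log2 scale, and under both scalings. It had too few counts for the LPS test within any of these classes and passed the filter only together with microglia. The sizes of these differences are therefore uncertain.

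The inhibitors served to show which RNAs respond to the dissociation itself. Over 12 classes and 458 tests of a member in a class, none differed between DMSO and inhibitor libraries in edgeR, where 8 had an unadjusted p under 0.05, nor in 538 tests with DESeq2. The lowest adjusted p was 0.82, for *Psmb5* in choroid plexus cells (−0.81 ± 0.27, DMSO minus inhibitors). In microglia 0.379% of all genes passed, and from 0.0117% in endothelial cells to 0.633% in macrophages in the others. The 2 members with the lowest p in microglia were *Psmg2* (−0.28 ± 0.10) and *Psmd6* (−0.26 ± 0.12). The LPS change of microglia did not differ between the dissociations for any of 48 members either, with 1 at an unadjusted p under 0.05 (*Psmb11*, −1.98 ± 0.76) and 0.0226% of all genes called. *Psmb11* had 71 UMIs over all gated cells and did not pass the filter of the LPS test, so its value lies near the floor.

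Related genes outside the 48 were read from lists in microglia, where 29.2% of all genes rose and 33.6% fell with TMM, and 13.7% and 67.3% with library totals. Of the 3 immunoproteasome genes 2 rose. *Psmb10* was at 155, 198, 176 and 200 CPM with saline and at 291, 272, 260 and 286 CPM with LPS (1.35 ± 0.16, adjusted p = 9.0e-06; 0.60 with library totals). *Psmb8* changed by 0.86 ± 0.19 with TMM and by 0.12 with library totals, where it did not pass, and *Psmb9* by 0.00 ± 0.16 and −0.75. The constitutive subunits they can replace, *Psmb5*, *Psmb6* and *Psmb7*, had larger changes, of 1.96 to 2.09. In choroid plexus cells both tested immunoproteasome genes rose, *Psmb8* from 0 to 14.2 CPM to 78.9 to 198 CPM (3.63 ± 0.48) and *Psmb10* by 2.65 ± 0.38, whereas *Psmb5* did not pass there. Both tested ones rose in leptomeningeal cells too, and 2 of 3 in monocytes, B-cells and endothelial cells. In macrophages and neutrophils 1 of 3 rose, in pericytes and smooth muscle 1 of 2, and in dendritic cells, T-cells and NKs none.

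Of the 11 genes of class I antigen processing 9 rose and 1 fell in microglia (5 and 4 with library totals), among them the heavy chain *H2-K1* (1.43), the peptide transporter gene *Tap1* (1.36) and, falling, the chaperone *Calr* (−0.45). Of 11 tested proteins that bind the proteasome 8 rose and 2 fell (6 and 3 with library totals). *Sem1*, a small subunit of the cap outside the symbol pattern, was at 221 to 256 CPM with saline and 597 to 718 CPM with LPS (2.26 ± 0.15), and the ubiquitin receptor *Adrm1* rose by 1.73 ± 0.15. *Akirin2*, which carries proteasomes into the nucleus, fell from 117 to 153 CPM to 13.2 to 23.0 CPM (−2.16 ± 0.13). Of 14 genes known in the control of proteasome genes 9 rose and 2 fell (6 and 7 with library totals): *Nfe2l1*, the factor of the proteasome recovery response, rose by 1.08 ± 0.11 (0.33 with library totals), *Stat3* by 1.35 and the segregase *Vcp* by 1.53, while *Nfya*, a subunit of NF-Y, fell from 79.1 to 86.1 CPM to 15.9 to 26.1 CPM (−1.24 ± 0.11). Of 12 ubiquitin, shuttle and activating enzyme genes 7 rose and 2 fell (3 and 6 with library totals), with *Rps27a* at 2.32 and the shuttle *Ubqln2* at −1.30.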

How the data were processed

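The authors aligned the reads with PIPseeker, which runs STAR, to a genome they give as GRCm39, and deposited raw UMI counts per gene and barcode for every barcode of the 8 libraries; Seurat 4 is in their processing notes and its output was not used. The proteasome genes and all lists were chosen with earlier results of these data known. Cells were gated by at least 3 marker genes and 4 marker UMIs at 5 times their share in free RNA (0.5 times for microglia), thresholds set after seeing the data; barcodes that passed several gates (335 to 848 per library) were left out as possible doublets, and no doublet caller was run. UMIs were summed per library and class with at least 10 cells, which left 12 of the 19 classes, and tested with edgeR 4.0.16 (filterByExpr, TMM, glmQLFit and glmQLFTest, R 4.3.3) with the dissociation as covariate, Benjamini-Hochberg over all tested genes. Two-class fits had the library as a block. The script was tested on simulated data in which few genes changed, as many up as down. That setting does not cover the broad change seen in microglia. Named genes were, in microglia, up to 6 called members a role by size and those against their role, and in each other class the 3 largest, or for a comparison with microglia the 4 largest. The capture batch given by the labels pairs the libraries, and same-batch libraries deviated together (correlations of 0.182 to 0.746 in 6 pairs over 8959 genes). Alternatives were DESeq2 1.42.0, other size factors, the batch as a block, other filters, depths and gates, free RNA subtraction, each dissociation alone and leaving out each library. P-values over 4 mice against 4 rest on that number, and counts carry counting error besides. Promoters were read from RefSeq, build GRCm38.p6, which is not the authors' build, so no coordinate was joined to the counts.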

Additional observations from a re-analysis of the deposited data

Results flagged for a closer look

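In 4 of 118 groups of 4 libraries 1 library stood far from the other 3, where chance alone gives about 1 in 20. The summed level of the proteasome genes in neutrophils was 5102 CPM in LPS inhibitor replicate 2 and 4794 to 4844 CPM in the other LPS libraries. In dendritic cells it was 7912 CPM in saline DMSO replicate 2 against 3996 to 4593 CPM, and 7140 CPM in LPS inhibitor replicate 2 against 7469 to 7527 CPM. *Psmc6* in LPS microglia was at 123.8 CPM in DMSO replicate 2 and at 149.5 to 153.6 CPM in the others.

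The LPS change differed from that of microglia, by the interaction of class and LPS, for 38 members in macrophages, 18 in monocytes, 23 in neutrophils, 6 in dendritic cells, 35 in B-cells, 37 in T-cells and 30 in NKs. The change was lower than in microglia for each of these but *Psme4* in monocytes, and the shares of all genes with a lower change were 19.7%, 10.5%, 7.93%, 3.28%, 9.18%, 9.71% and 6.79%. With library totals the counts were 20, 13, 7, 6, 13, 20 and 11. All these counts can include members that passed the filter on low counts only together with microglia, whose differences are uncertain. In barcodes of 1 to 99 UMIs, which were taken as free RNA, the summed level of the members had a mean of 8234 CPM in the LPS libraries and was 3911 to 4363 CPM in the saline libraries.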

How the results depend on the processing

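None of the members chosen by the naming rule changed direction under the alternatives run; *Psmd5* in microglia, outside that rule, went from 0.48 to −0.28 with library totals. The counts of members changed by LPS that moved by over 1.5 times are given by setting. They are not set against all genes and show only how far the number moved. With an absolute log2 fold change over 2 also required, 18 were left in microglia, 1 in neutrophils and 0 in each of macrophages, monocytes, dendritic cells, B-cells, T-cells, NKs, endothelial cells, pericytes, choroid plexus cells and leptomeningeal cells. With DMSO libraries alone there were 22 in monocytes, 21 in endothelial cells, 3 each in B-cells, T-cells and pericytes, 2 in choroid plexus cells, 1 each in NKs and leptomeningeal cells and 0 in neutrophils and dendritic cells. With inhibitor libraries alone there were 23 in endothelial cells, 3 each in neutrophils and NKs, 2 in leptomeningeal cells and 1 each in T-cells and pericytes. The replicate block, which pairs libraries of a capture batch, gave 10 in neutrophils (5164 genes tested against 4384) and, apart from *Psmb3* in choroid plexus cells, changed no other named call. Without a filter on low counts there were 10 in neutrophils, 5 each in T-cells and NKs and 2 each in B-cells, pericytes and choroid plexus cells. With a minimum of 1500 UMIs neutrophils had 2. With cells of at least 2000 and under 4000 UMIs, chosen after seeing the data as were library totals, there were 19 in endothelial cells, 5 in B-cells, 4 in NKs, 3 each in neutrophils and T-cells, 2 in pericytes (1 of them falling) and 0 in choroid plexus cells, where 1 member could be tested. With mixed barcodes kept there were 32 in T-cells, 23 in pericytes, 19 in NKs, 12 in dendritic cells and 11 in neutrophils. Without cells of a dissociation response pericytes had 6 and neutrophils 3. DESeq2 gave 6 each in T-cells and leptomeningeal cells, 5 in NKs, 4 in dendritic cells and 3 in pericytes, and a stricter gate 16 in NKs and 0 in leptomeningeal cells. Library totals gave 7 each in T-cells and leptomeningeal cells and 5 in B-cells.

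Of members whose LPS change differed from microglia, library totals left 20 in macrophages, 20 in T-cells, 13 in B-cells, 11 in NKs and 7 in neutrophils, and RLE factors 24 in T-cells, 14 in B-cells and 13 in NKs. Neutrophils had 12 without the filter, 15 at 1500 UMIs and 11 with free RNA subtracted, and NKs 17 at 1500 UMIs. Of members that differed from microglia with saline, library totals gave 20 in pericytes, 11 in choroid plexus cells, 10 in neutrophils and 4 in dendritic cells, RLE factors 9 in neutrophils, 8 in choroid plexus cells and 4 each in dendritic and leptomeningeal cells, no filter 3 in pericytes and 2 in choroid plexus cells, and 1500 UMIs 10 in neutrophils, 4 in leptomeningeal cells and 1 in choroid plexus cells. The difference of the summed level, LPS minus saline, was 5258 CPM in microglia. With TMM-scaled CPM it was 9013 there, 3781 in macrophages, 5776 in monocytes, 3102 in B-cells and 2559 in T-cells. It was then 4689 in endothelial cells, 4630 in pericytes, 1002 in choroid plexus cells and 4591 in leptomeningeal cells. TMM-scaled CPM count only the UMIs of genes that passed the filter in their total, so they are not on the scale of the other CPM. In pericytes the means went from 6105 and 9356 to 8283 and 12913 CPM, with ratios of 1.53 and 1.56. At matched depth the difference was 1073 CPM in T-cells and 2489 CPM in endothelial cells. No summed level is given at matched depth for the 6 classes in which a library had under 10 such cells, though their member counts were fitted where enough libraries remained. The causes were not tested.

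Leaving out 1 library in turn gave 46 to 47 changed by LPS in microglia, 36 to 39 in macrophages, 30 to 39 in monocytes, 31 to 36 in endothelial cells, 2 to 13 in neutrophils, 4 to 10 in dendritic cells, 3 to 11 in B-cells, 5 to 11 in T-cells, 4 to 9 in NKs, 2 to 10 in pericytes, 2 to 5 in choroid plexus cells and 6 to 12 in leptomeningeal cells. For changes against microglia the ranges were 24 to 38, 13 to 22, 7 to 23, 3 to 6, 27 to 33, 30 to 36 and 14 to 29 in macrophages, monocytes, neutrophils, dendritic cells, B-cells, T-cells and NKs. For saline levels they were 23 to 26, 16 to 19, 11 to 19, 4 to 6, 14 to 25, 15 to 22 and 11 to 19 in the same order, and 24 to 28 in endothelial cells, 1 to 10 in pericytes, 0 to 3 in choroid plexus cells and 4 to 5 in leptomeningeal cells.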
